A study of Mus musculus with 20 samples.

Results

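Clade A serpins are secreted proteins made largely by the liver, and 10 of their genes were examined in the livers of 4 mouse strains: Serpina1b, Serpina1d, Serpina1e, Serpina3k, Serpina3m, Serpina6, Serpina7, Serpina10, Serpina11 and Serpina12. A gene was measured where a probe set of the array carried its symbol and no other, and a gene with several such probe sets was to be represented by the brightest on average over the 20 arrays. The probe sets were thus selected on their overall mean level, a choice that decided nothing here, because each of these genes with a probe set of its own had exactly 1. Of the 10 genes, 6 had one (Serpina1d, Serpina6, Serpina7, Serpina10, Serpina11 and Serpina12), out of 19938 genes on the array. Serpina1b and Serpina1e were read by 2 probe sets that carry the symbols of all of Serpina1a, Serpina1b, Serpina1c, Serpina1d and Serpina1e, so no level of their own can be given. In the annotation used, no probe set carried the symbol of Serpina3k or Serpina3m, alone or with others, so these 2 genes are not analysed here.

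The arrays came from liver of male mice aged 6 weeks, all weaned at 21 days and then given a high-fat diet in which fat supplied 45% of the energy, carbohydrate 35% and protein 20%. There were 5 NZO/Hl mice (called NZO), 5 C3H mice, 5 129P2/OlaHsd mice (129P2) and 5 C57/Bl6 mice (B6), with 1 array per mouse. NZO is an inbred model of polygenic obesity and type 2 diabetes, and the series looked for candidate genes among strain differences. None of these arrays carries a knockdown or any other treatment, so each comparison is between inbred strains on 1 diet.

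A serpin folds into a metastable shape with an exposed reactive loop. An inhibitory serpin offers this loop as bait to a serine protease, traps the enzyme when the loop is cut, and is consumed in doing so. Serpina1 genes encode alpha-1-antitrypsins, and the human protein of that name protects tissue against neutrophil elastase. How far each mouse protein does so was not tested. Serpina10 encodes the protein Z-dependent inhibitor of coagulation factor Xa, and Serpina12 encodes vaspin, an adipokine that inhibits kallikrein 7. Serpina6 (corticosteroid-binding globulin) and Serpina7 (thyroxine-binding globulin) inhibit no protease and instead carry glucocorticoids and thyroid hormones in blood. Serpina11 is little characterised.

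129P2 livers stood apart from the other strains in 3 of the 6 measured genes. Serpina1d and Serpina12 were lower in 129P2 than in NZO, C3H and B6, and Serpina11 was higher in 129P2 than in all of them. Serpina10 was moderately higher in NZO than in C3H and 129P2, Serpina6 was lower in NZO than in 129P2, and Serpina7 passed no test. All values below are log2 expression values as deposited, on which 1 unit is a 2-fold difference, and they are set against each other only within a gene. Differences were tested with limma over the 14190 genes with a detectable signal, with Benjamini-Hochberg adjustment over all of them, and a difference counts as called at an adjusted p under 0.05.

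**Figure D1:**
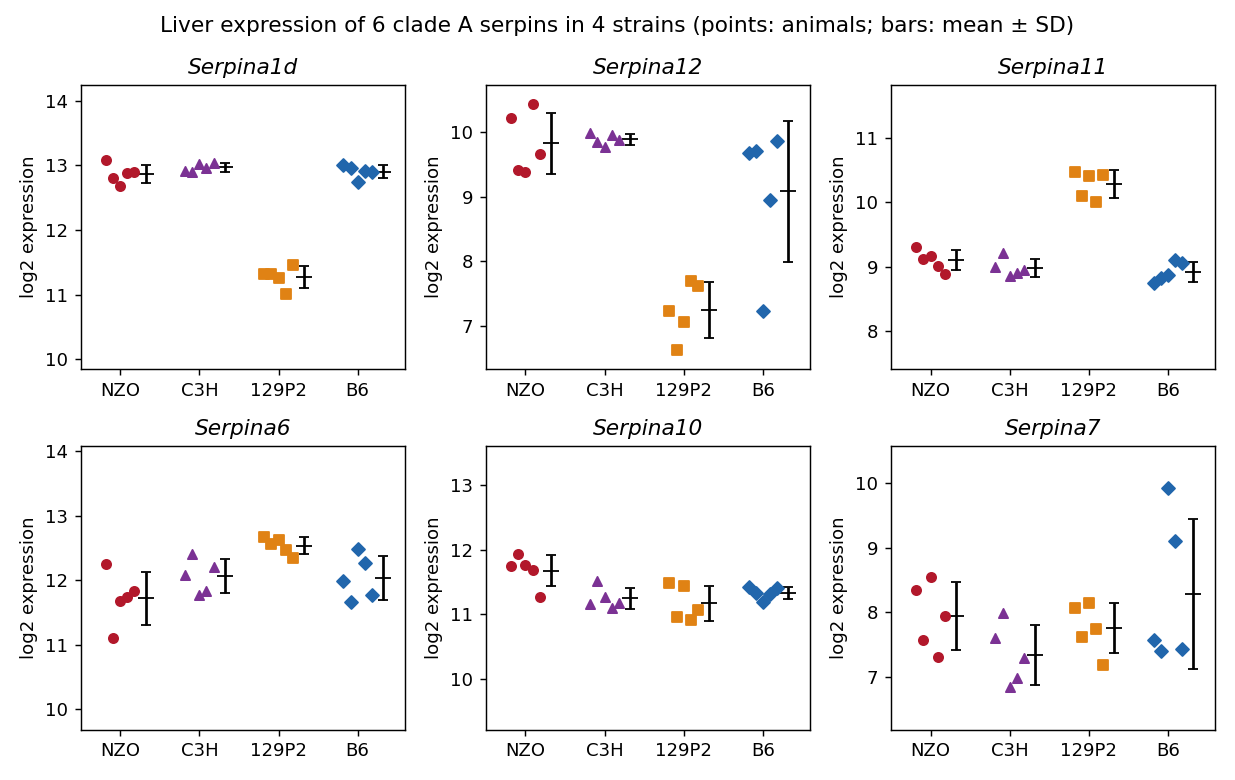
Log2 expression of the 6 measured clade A serpins in liver of NZO, C3H, 129P2 and B6 mice (5 each). Points are animals, the black bar beside them is the mean with its SD, and every panel spans the same range; in Serpina1d and Serpina11 the 129P2 animals lie clear of all others, and in Serpina12 they overlap with 1 B6 animal at 7.23.

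The moderated F-test over the 4 strains called 5 of the 6 genes, all but Serpina7 (adjusted p = 0.284), against 17% of all genes tested. In the comparison NZO minus 129P2, 5 of the 6 were called, against 8.9% of all genes: 3 were higher in NZO (4.29% of all genes) and 2 lower (4.61%). In C3H minus 129P2, 3 were called against 5.03%, with 2 higher in C3H (2.25% of all genes) and 1 lower (2.78%). In 129P2 minus B6, 3 were called against 6.19%, with 1 higher in 129P2 (2.11% of all genes) and 2 lower (4.08%). NZO minus C3H called 1 of 6, Serpina10, against 6.6%. limma called none of the 6 in NZO minus B6, against 10.3% of all genes, and none in C3H minus B6, against 8.05%; in each of these comparisons 2 of the 6 had an unadjusted p under 0.05. The 6 comparisons share strains, so these counts are not separate pieces of evidence. The median difference of the 6 genes was 0.35 in NZO minus 129P2, where the median of all genes was 0.01, and it sums over genes that moved in opposite directions.

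**Figure D2:**
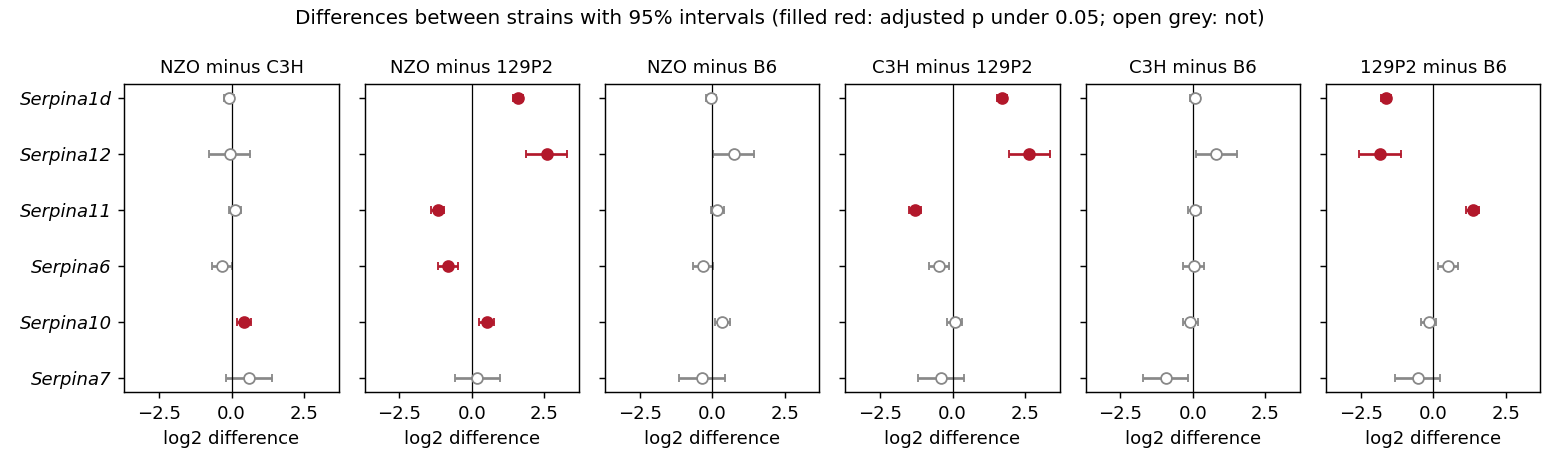
Differences of log2 means between strains for the 6 genes, 1 panel per comparison, with 95% confidence intervals from the limma fit. Filled red points are called and open grey points are not; the called points for Serpina1d, Serpina12 and Serpina11 lie in the 3 comparisons that involve 129P2.

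Serpina1d encodes one of the mouse alpha-1-antitrypsins. Its log2 values were 13.09, 12.80, 12.69, 12.88 and 12.89 in the 5 NZO livers and 12.91, 12.90, 13.03, 12.96 and 13.04 in the C3H livers. They were 11.32, 11.32, 11.26, 11.01 and 11.45 in 129P2 livers, against 13.01, 12.97, 12.74, 12.92 and 12.89 in B6 livers. All 5 129P2 animals lay more than 1 unit below every animal of the other strains, which overlapped with each other. NZO exceeded 129P2 by 1.60 ± 0.08 (SE; 3.03-fold, adjusted p = 5.66e-12), and C3H exceeded 129P2 by 1.70 ± 0.08 (3.24-fold, adjusted p = 3.46e-12). The 129P2 level was 32.2% of that in B6 (difference -1.63 ± 0.08, adjusted p = 2.83e-12). Among NZO, C3H and B6 no difference was called, and the intervals bound it closely: NZO minus C3H was -0.10 (95% interval -0.27 to 0.07), NZO minus B6 was -0.04 (-0.21 to 0.13) and C3H minus B6 was 0.06 (-0.11 to 0.23).

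The close paralog Serpina1c, another alpha-1-antitrypsin, did not show this difference at its own probe set. Its mean was 13.68 ± 0.10 in NZO, 13.74 ± 0.02 in C3H, 13.56 ± 0.15 in 129P2 and 13.68 ± 0.12 in B6 (SD, n = 5 each). No comparison was called, with C3H minus 129P2 at 0.19 (95% interval 0.04 to 0.33, adjusted p = 0.158). Serpina1c was brighter than 99.9% of tested genes, near the top of the array's range, where a difference may be understated. The 2 probe sets shared by the 5 paralogs, the only ones to read Serpina1b and Serpina1e, were tested in a fit over all 22534 probe sets with signal. The first showed no called difference (F-test adjusted p = 0.569; means 13.54 in NZO, 13.57 in C3H, 13.50 in 129P2 and 13.52 in B6). At the second, NZO exceeded 129P2 by 0.13 (adjusted p = 0.0188) and C3H exceeded 129P2 by 0.17 (adjusted p = 0.00388), while 129P2 minus B6 was -0.10 (adjusted p = 0.104). The first was brighter than 99.8% of tested genes and the second than 99.99%, so differences may be understated at these probe sets too. Probes for such similar genes may read more than one of them, so the level at the Serpina1d probe set is that of a probe set and not surely of 1 gene. Whether the strains differ in sequence under the probes was not tested.

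The promoters of this pair are shown because the paralogs lie close together and are alike upstream, while only one of their probe sets differed between strains. The windows run from 250 bases before the annotated start to 50 bases after it, from the RefSeq table for GRCm38.p6, which holds the C57BL/6J sequence and none of the other strains; both genes are on the minus strand, Serpina1d at chr12:103773584-103773883 and Serpina1c at chr12:103904901-103905200. Capitals mark matches to 2 motifs searched on both strands, the sequence GTTAAT, part of the site of the hepatocyte factor HNF1, and the sequence TTGCNNAA of C/EBP factors.
Serpina1d promoter: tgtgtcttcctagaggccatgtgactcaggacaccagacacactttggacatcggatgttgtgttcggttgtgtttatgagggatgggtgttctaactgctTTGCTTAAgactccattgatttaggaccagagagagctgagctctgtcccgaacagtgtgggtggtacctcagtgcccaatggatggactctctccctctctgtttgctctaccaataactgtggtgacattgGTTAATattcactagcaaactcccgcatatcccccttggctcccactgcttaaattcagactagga
Serpina1c promoter: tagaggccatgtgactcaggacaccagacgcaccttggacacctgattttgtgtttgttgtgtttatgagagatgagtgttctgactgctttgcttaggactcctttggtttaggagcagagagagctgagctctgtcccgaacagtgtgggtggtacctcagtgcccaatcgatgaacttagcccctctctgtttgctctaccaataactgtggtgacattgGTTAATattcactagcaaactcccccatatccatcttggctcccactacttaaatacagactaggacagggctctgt
The 2 windows align with 265 identical and 24 mismatched bases (91.7% identical) and 22 gap positions. GTTAAT begins 16 bases before the start of Serpina1d and 27 bases before that of Serpina1c. It was present in the windows of all 5 paralogs (26 bases before the start in Serpina1b, 78 in Serpina1e, 21 in Serpina1a), and in 7.1% of the 32851 promoter windows of the table. TTGCNNAA was present in Serpina1a, Serpina1b, Serpina1d and Serpina1e and absent as written from the window of Serpina1c, and 10.8% of all windows hold it. The matches do not overlap each other. Of the 10 genes, 6 have a window in the table: Serpina1b, Serpina1d, Serpina1e, Serpina7, Serpina11 and Serpina12.

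Serpina12, which encodes vaspin, had the widest strain difference of the 6. The log2 values of Serpina12 were 10.23, 9.42, 9.39, 10.44 and 9.67 in NZO and 9.99, 9.85, 9.78, 9.97 and 9.89 in C3H. They were 7.23, 6.63, 7.05, 7.70 and 7.62 in 129P2, against 9.68, 9.71, 7.23, 8.95 and 9.87 in B6. All 129P2 animals lay below all NZO and C3H animals, and 1 B6 animal, replicate 3, fell within the 129P2 range. On 1 of the 5 129P2 arrays the signal was below the array's 40th percentile, the level used here for a detectable signal. NZO exceeded 129P2 by 2.58 (95% interval 1.87 to 3.30, 5.98-fold), and C3H exceeded 129P2 by 2.65 ± 0.35 (SE; 6.27-fold, adjusted p = 1.51e-05). The 129P2 level was 27.9% of that in B6 (difference -1.84 ± 0.35, adjusted p = 0.0012), and the difference was -2.30 (adjusted p = 3.56e-07) when B6 replicate 3 was left out. NZO minus B6 was 0.74 (95% interval 0.03 to 1.46, adjusted p = 0.184) and C3H minus B6 was 0.81 (0.09 to 1.52, adjusted p = 0.151); without B6 replicate 3 they were 0.28 (adjusted p = 0.489) and 0.34 (adjusted p = 0.384).

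The spread within strains also differed. The SD of Serpina12 was 0.48 in NZO, 0.09 in C3H, 0.44 in 129P2 and 1.10 in B6 (n = 5 each), so that a single value per strain describes C3H well and B6 poorly.

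Serpina11, whose protein has no well-established target protease, moved the other way. Its log2 values were 9.31, 9.12, 9.18, 9.01 and 8.90 in NZO and 8.99, 9.22, 8.85, 8.90 and 8.95 in C3H. They were 10.47, 10.11, 10.41, 10.01 and 10.43 in 129P2, against 8.74, 8.82, 8.87, 9.11 and 9.07 in B6. Every 129P2 animal was above every animal of the other strains, and those overlapped with each other. NZO was at 44.1% of the 129P2 level (difference -1.18 ± 0.11, adjusted p = 4.99e-08) and C3H at 40.6% (-1.30 ± 0.11, adjusted p = 1.57e-08). 129P2 exceeded B6 by 1.36 ± 0.11 (2.57-fold, adjusted p = 6.11e-09). Between the other strains the differences were 0.12 in NZO minus C3H, 0.18 in NZO minus B6 and 0.06 in C3H minus B6, none of them called.

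Serpina11 and Serpina12 are near neighbours on chromosome 12 with Serpina9 between them, and their promoters are shown because the levels differed in opposite directions in 129P2. Both lie on the minus strand, at chr12:103989908-103990207 for Serpina11 and chr12:104044394-104044693 for Serpina12 (GRCm38.p6, RefSeq, the same window and capitals as above).
Serpina11 promoter: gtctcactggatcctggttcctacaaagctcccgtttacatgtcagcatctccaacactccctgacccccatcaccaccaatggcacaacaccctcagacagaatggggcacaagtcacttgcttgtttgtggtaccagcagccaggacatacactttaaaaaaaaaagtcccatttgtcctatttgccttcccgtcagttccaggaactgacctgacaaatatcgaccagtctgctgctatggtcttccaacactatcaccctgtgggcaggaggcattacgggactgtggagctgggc
Serpina12 promoter: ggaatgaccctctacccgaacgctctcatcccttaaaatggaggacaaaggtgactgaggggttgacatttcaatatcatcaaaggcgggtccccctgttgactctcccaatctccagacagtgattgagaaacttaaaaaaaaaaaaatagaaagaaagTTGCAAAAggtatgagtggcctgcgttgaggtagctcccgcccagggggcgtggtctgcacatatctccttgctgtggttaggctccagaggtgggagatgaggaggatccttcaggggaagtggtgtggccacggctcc
Neither motif was found in the Serpina11 window as searched. The Serpina12 window held 1 match to TTGCNNAA, which begins 90 bases before the start, and none to GTTAAT. Serpina7, on the X chromosome, held both motifs in its window.

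Of all genes tested, 162 (1.14%) differed between 129P2 and each of the other 3 strains in 1 direction, 89 lower (0.627%) and 73 higher (0.514%) in 129P2. Ordered by the smallest of the 3 differences, Serpina12 was number 1 and Serpina1d number 3 among the 89, and Serpina11 was number 8 among the 73. Serpina1d, Serpina11 and Serpina12 held the 129P2 calls in all 32 alternative treatments of the data, 20 of which left out 1 animal.

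Serpina6 encodes corticosteroid-binding globulin, which carries most of the cortisol or corticosterone in plasma. Individual log2 values were 12.24, 11.10, 11.68, 11.74 and 11.82 in NZO and 12.08, 12.41, 11.77, 11.82 and 12.20 in C3H. They were 12.66, 12.56, 12.63, 12.46 and 12.34 in 129P2, against 11.98, 11.66, 12.48, 12.27 and 11.77 in B6. The NZO and 129P2 animals did not overlap, while C3H and B6 animals lay across the range of both. NZO was at 56.8% of the 129P2 level (difference -0.81 ± 0.17, adjusted p = 0.00252). The other differences that involve 129P2 were not called, with C3H minus 129P2 at -0.48 (95% interval -0.83 to -0.12, adjusted p = 0.125) and 129P2 minus B6 at 0.50 (0.15 to 0.85, adjusted p = 0.0907). Without B6 replicate 3, 129P2 exceeded B6 by 0.61 (adjusted p = 0.0337), and without NZO replicate 2, which leaves the difference itself at 0.50, the adjusted p was 0.0432.

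The arrays differed in how widely their values spread, and Serpina6 moved with that spread. The interquartile range of an array averaged 2.33 in NZO, 2.31 in C3H, 2.32 in 129P2 and 2.43 in B6, and within strains 6948 of the 14190 genes (49%) followed it. Serpina6 rose by 0.27 for each 0.1 of spread (adjusted p = 0.000891) and Serpina11 by 0.11 (adjusted p = 0.0344); for Serpina1d, Serpina7, Serpina10 and Serpina12 the slope passed no test. With the spread as a covariate, Serpina6 was also called in NZO minus C3H (-0.40, adjusted p = 0.0377), C3H minus 129P2 (-0.46, adjusted p = 0.0189) and 129P2 minus B6 (0.80, adjusted p = 0.000524).

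Serpina10 encodes the protein Z-dependent protease inhibitor. Its log2 values were 11.75, 11.93, 11.77, 11.68 and 11.27 in NZO and 11.17, 11.52, 11.27, 11.10 and 11.18 in C3H. They were 11.48, 10.95, 11.43, 10.90 and 11.07 in 129P2, against 11.42, 11.32, 11.19, 11.31 and 11.42 in B6. In NZO, 4 of the 5 animals were above every animal of the other strains and replicate 5, at 11.27, lay among them. NZO exceeded C3H by 0.43 ± 0.12 (adjusted p = 0.0343) and 129P2 by 0.51 ± 0.12 (adjusted p = 0.00835), and NZO minus B6 was 0.35 ± 0.12 (adjusted p = 0.0745). The NZO minus C3H call is fragile, since it was lost in 10 of the 32 alternatives, among them leaving out any 1 of NZO replicates 1 to 4 (adjusted p = 0.0712 without replicate 1, 0.101 without 2, 0.0828 without 3 and 0.0628 without 4) or of C3H replicates 1, 3, 4 and 5 (0.0825, 0.0502, 0.0959 and 0.082). The NZO minus 129P2 call was lost without the 3 arrays of narrowest spread (0.39, adjusted p = 0.0755), and NZO minus B6 was called without NZO replicate 5 (0.45, adjusted p = 0.0172).

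Serpina7 encodes thyroxine-binding globulin, the main carrier of thyroid hormone in human plasma. The animals had log2 values of 8.35, 7.57, 8.55, 7.31 and 7.95 in NZO and 7.61, 7.99, 6.84, 6.99 and 7.30 in C3H. They were 8.07, 7.62, 8.15, 7.74 and 7.18 in 129P2, against 7.57, 7.41, 9.93, 9.10 and 7.43 in B6. The strains overlapped throughout, and B6 held both of the highest values beside 3 animals near 7.5. The widest difference between means, C3H minus B6, was -0.94 (95% interval -1.73 to -0.16, adjusted p = 0.129), and it was -0.53 (adjusted p = 0.336) without B6 replicate 3. The intervals of this gene are wide (SE 0.38), so differences of the size seen in Serpina10 were not detectable here.

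**Figure D3:**
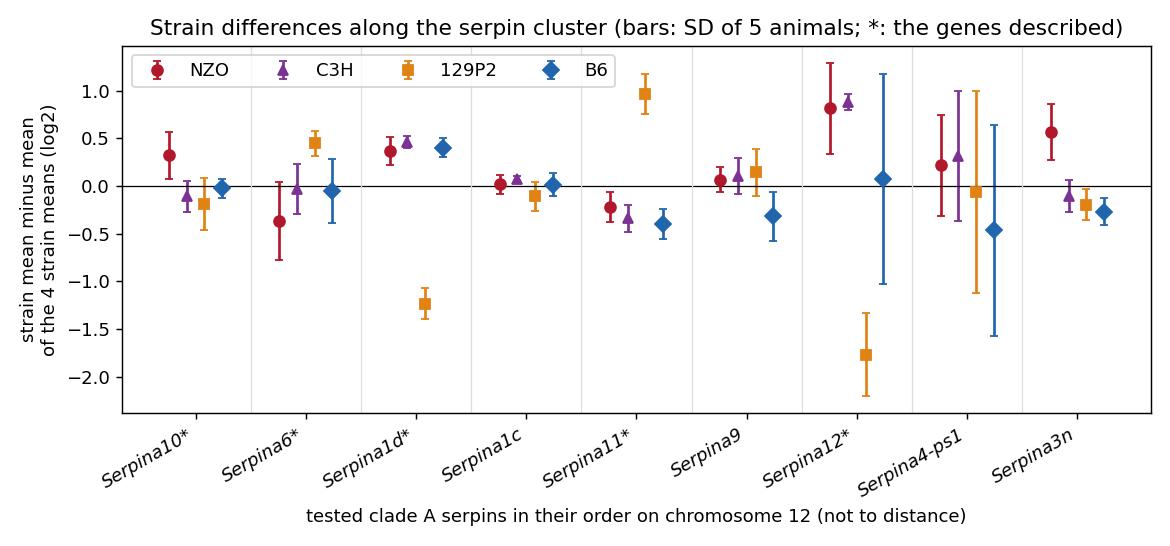
Strain means of the 9 tested clade A serpins of chromosome 12, in their order along the chromosome, each shown as its difference from the mean of the 4 strain means (log2; bars are the SD of 5 animals). 129P2 lies low at Serpina1d and Serpina12 and high at Serpina11, with Serpina1c and Serpina9 among them showing no such distance, and NZO lies high at Serpina3n.

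All but Serpina7 of the 10 genes lie in 1 cluster on chromosome 12. The annotation lists 28 clade A serpin genes and pseudogenes there, of which 14 had a probe set of their own and 9 were tested. In order these 9 are Serpina10, Serpina6, Serpina1d, Serpina1c, Serpina11, Serpina9, Serpina12, Serpina4-ps1 and Serpina3n. Among these tested genes, those that set 129P2 apart alternate with others: between Serpina1d and Serpina11 lies Serpina1c, and between Serpina11 and Serpina12 lies Serpina9. Serpina1a and Serpina1e also lie between Serpina1d and Serpina11 but had no probe set of their own. Serpina9 is known from germinal centre B cells in human, and its signal here was low, below the 40th percentile on 1 NZO, 1 C3H, 2 129P2 and 4 B6 arrays. It was called in C3H minus B6 (0.43, adjusted p = 0.0341) and 129P2 minus B6 (0.46, adjusted p = 0.0238), and these calls held in 18 and 22 of the 31 alternatives in which the gene was tested. The first was lost without any 1 of B6 replicates 1, 3, 4 and 5 or C3H replicates 1, 3 and 5 (adjusted p between 0.0597 and 0.0953), and the second without any 1 of B6 replicates 3, 4 and 5 or 129P2 replicates 1, 3 and 5 (between 0.051 and 0.0784).

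Of the other clade A serpins in the cluster, 9 had a probe set of their own and 4 were tested. Serpina3n, an acute phase serpin that inhibits granzyme B in mouse, was higher in NZO. Its log2 values were 13.29, 14.07, 13.86, 13.63 and 13.60 in NZO, and they ran between 12.73 and 13.16 in C3H, 12.66 and 13.08 in 129P2, and 12.67 and 13.04 in B6. NZO animals were above every other animal, and NZO exceeded C3H by 0.67 (adjusted p = 0.000426), 129P2 by 0.76 (8.82e-05) and B6 by 0.84 (2.69e-05). Serpina4-ps1, a transcribed pseudogene, was called nowhere and had the widest scatter within strains. Log2 values of this pseudogene were 11.88, 12.87, 11.92, 12.89 and 11.96 in NZO and 13.08, 13.08, 11.49, 12.11 and 12.25 in C3H. They were 13.22, 11.06, 13.10, 11.15 and 11.57 in 129P2, against 10.94, 12.99, 10.42, 12.58 and 11.19 in B6, so animals of 1 strain differed by up to 2.57 units. Serpina1f, Serpina3b, Serpina5 and Serpina16 were below the 40th percentile on every array, and Serpina3a on 18 of 20.

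Agt encodes angiotensinogen, a clade A serpin by descent that inhibits no protease and lies outside the cluster. It was lower in NZO and C3H than in 129P2 and B6: NZO minus 129P2 was -0.55 (adjusted p = 0.00125), NZO minus B6 was -0.52 (0.002), C3H minus 129P2 was -0.80 (1.82e-05) and C3H minus B6 was -0.77 (3.07e-05).

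Of the 3 nearest tested genes on each side of the cluster, the F-test called Ifi27 and Ifi27l2b, where 17% of all genes tested were called. Ppp4r4 and Clmn did not pass it (adjusted p = 0.0598 each). Ppp4r4 was called only in NZO minus B6 (0.35, adjusted p = 0.0187, held in 25 of 31 alternatives). Clmn was called only in NZO minus 129P2 (-0.45, adjusted p = 0.0221, held in 28 of 32). Ifi27, an interferon-inducible gene, was lower in 129P2, where NZO exceeded it by 1.62 (adjusted p = 3.44e-08) and C3H by 0.66 (0.0045), and 129P2 minus B6 was -1.25 (2.47e-06). NZO also exceeded C3H by 0.95 at Ifi27 (7.23e-05). Ifi27l2b was lower than in B6 in each other strain: NZO minus B6 was -0.97 (adjusted p = 0.00102), C3H minus B6 was -0.68 (0.0238) and 129P2 minus B6 was -0.79 (0.00883). The C3H call at Ifi27l2b was lost without C3H replicate 1 (adjusted p = 0.0531) or replicate 4 (0.0597). Without B6 replicate 3 the differences from B6 at Ifi27l2b were -0.71 in NZO, -0.41 in C3H and -0.52 in 129P2, and all were called. In a fit of only the 2 compared strains both the C3H call (adjusted p = 0.0943) and the 129P2 call (0.0734) were lost. The C3H call was also lost with array spread as a covariate (adjusted p = 0.0815). On the other side of the cluster Gsc and Dicer1, which encodes the ribonuclease that makes small RNAs, were called in none of the 6 comparisons by limma (2 unadjusted p-values under 0.05 for Gsc, 0 for Dicer1).

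The genes whose pattern was most like each of Serpina1d, Serpina11 and Serpina12 were sought by the root-mean-square difference of centred log2 values over the 20 arrays, among 13254 genes. Ttc23, a tetratricopeptide repeat gene, was nearest to Serpina1d (0.216, where the SD of Serpina1d itself is 0.721), followed by the steroid dehydrogenase gene Hsd3b3 (0.296) and the cytochrome b5 reductase gene Cyb5r3 (0.355). Nearest to Serpina11 were Cox6b2, a cytochrome c oxidase subunit gene (0.235, with an SD of 0.578 for Serpina11), the zinc finger gene Zfp868 (0.241) and the cell adhesion gene Ceacam2 (0.256). Zfp868 was below the 40th percentile on 4 NZO, 5 C3H and 5 B6 arrays and on 0 129P2 arrays, so its likeness over the other strains rests on values near the floor. Nearest to Serpina12 were Slc22a7, which encodes an organic anion transporter (0.463, with an SD of 1.21 for Serpina12), Slc46a3 (0.653) and the carboxylesterase gene Ces1g (0.684). Slc22a7 shared with Serpina12 not only the low values of 129P2, between 8.73 and 9.36, but also a low B6 replicate 3, at 8.52 where the other B6 animals had 10.88, 10.58, 9.39 and 10.82. For Slc22a7, 129P2 minus B6 was -1.01 and not called (adjusted p = 0.0854).

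**Figure D4:**
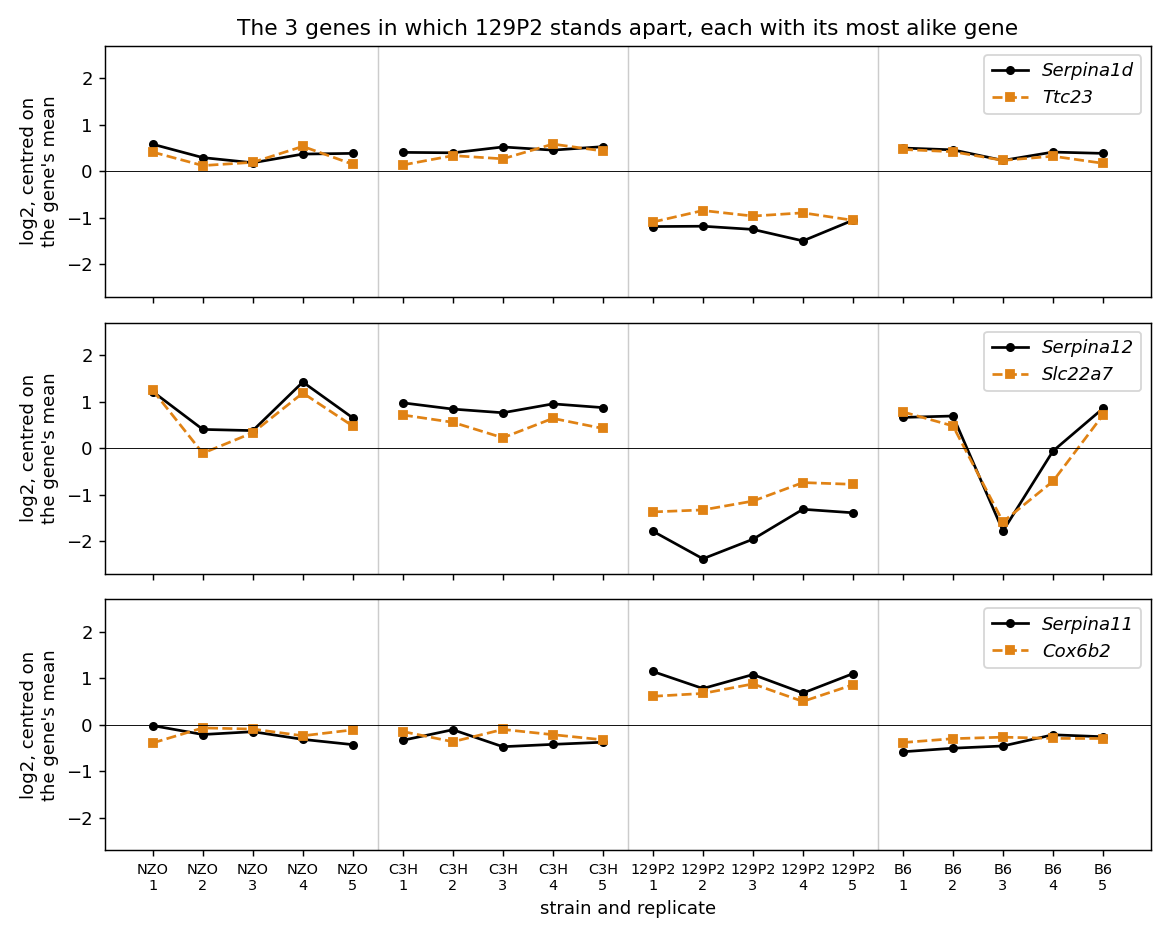
Log2 values centred on each gene's mean for Serpina1d, Serpina12 and Serpina11 (black) and the gene most like each (orange, dashed), for 5 animals of each of NZO, C3H, 129P2 and B6. The 129P2 animals lie clear of all others in the Serpina1d and Serpina11 pairs; in Serpina12 and Slc22a7 they lie low but overlap with B6, whose replicate 3 is low in both genes.

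The remaining genes of serpin biology were followed in lists, chosen with earlier results of these data known. Serpins are folded and exported through the endoplasmic reticulum, and of 16 genes for its quality control and export 9 were higher and 0 lower in NZO than in 129P2, where 4.29% of all genes were higher and 4.61% lower. The median difference of this list was 0.42, against 0.01 for all genes. Among them were the chaperone Hspa5 (0.70, adjusted p = 0.00385) and the disulfide isomerase Pdia4 (0.64, 0.000101). Others were the lectin chaperone Calr (0.54, 1.56e-05) and the cargo receptor Lman1, whose protein exports alpha-1-antitrypsin (0.52, 0.00439). Hspa5 was also lower in 129P2 than in C3H (C3H minus 129P2 0.70, 0.00637) and B6 (129P2 minus B6 -0.57, 0.0256). Its NZO minus C3H difference was 0.005. Lman1 was lower in 129P2 than in B6 (-0.42, 0.0282). These calls against B6 held in 23 and 26 of 32 alternatives. Calr and Pdia4 were higher in NZO than in C3H as well (0.31, 0.00558, and 0.40, 0.0125), and than in B6 (0.35, 0.00205, and 0.36, 0.0193). Both of these Calr calls held in all 32 alternatives. Those of Pdia4 held in 31 against C3H and in 27 against B6, where the difference ran from 0.24 to 0.43. Of the 16, 2 were higher and 0 lower in NZO minus C3H (6.6% of all genes were called in either direction). The counts were 5 and 0 in NZO minus B6 (10.3%) and 2 and 0 in C3H minus 129P2 (5.03%). In 129P2 minus B6 0 were higher and 2 lower (6.19%), and limma called none in C3H minus B6, where 0 had an unadjusted p under 0.05.

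Among 16 tested genes for serine proteases that serpins restrain, 2 were higher and 1 lower in NZO than in C3H (6.6% of all genes called), 2 and 1 in NZO minus 129P2 (8.9%), and 3 and 1 in NZO minus B6 (10.3%). With 16 genes in the list these are counts of 3 or 4 genes. F12, which encodes coagulation factor XII, was higher in NZO than in C3H (0.47, adjusted p = 0.00197), lower in NZO than in B6 (-0.38, 0.0101), and lower in C3H than in 129P2 (-0.54, 0.00056) and B6 (-0.85, 1.58e-06). limma called none of the 16 in 129P2 minus B6, where 2 had an unadjusted p under 0.05. Of 11 tested serpins of other clades, Serpinb8 was lower in C3H than in 129P2 (-0.69, 0.000527) and higher in 129P2 than in B6 (0.62, 0.00141). It was below the 40th percentile on all 5 NZO arrays and 1 C3H array, so no size is given for NZO.

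The hormones carried by Serpina6 and Serpina7 have their own handling and target genes. Of 11 tested genes for glucocorticoids, Cyp17a1, an enzyme of steroid synthesis, was lower in NZO than in 129P2 (-1.25, adjusted p = 0.000418) and B6 (-1.52, 4.25e-05), and lower in C3H than in 129P2 (-1.26, 0.000549) and B6 (-1.53, 4.68e-05). The median difference of this list lay between -0.05 and 0.06 in all 6 comparisons. Of 10 tested genes for thyroid hormone, Slco1a4, an organic anion and thyroid hormone transporter, was lower in NZO than in 129P2 (-2.06, 6.2e-07), C3H (-0.96, 0.00564) and B6 (-1.22, 0.000509). Dio1, the deiodinase that activates thyroxine, was lower in C3H than in NZO (NZO minus C3H 1.06, 0.00271). It was lower in C3H than in B6 too (-0.83, 0.0188), a call that held in 29 of 32 alternatives. NZO minus B6 (0.23) and NZO minus 129P2 (0.48) were not called at Dio1. In NZO minus C3H, 3 genes of the list were lower in NZO (6.6% of all genes called). These were Slco1a4, the lipogenic enzyme gene Me1 (-1.38, 0.000358) and the transporter gene Slc16a10 (-0.38, 0.0263). Slc16a10 was lower in NZO than in 129P2 (-0.46, 0.00489) and B6 (-0.41, 0.0116) as well, while its difference from C3H was not called without any 1 of C3H replicates 1 and 4 or NZO replicates 3, 4 and 5 (adjusted p between 0.0521 and 0.0753).

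Of 18 tested hepatocyte transcription factor genes, 3 were higher and 1 lower in NZO than in 129P2, where 4.29% of all genes were higher and 4.61% lower. Foxa3 was higher there by 0.73 (adjusted p = 0.000926), Stat3, the factor downstream of interleukin 6, by 0.47 (0.00963) and Nr1h4, the bile acid receptor, by 0.38 (0.015). Stat3 was not called without the 3 arrays of narrowest spread (0.34, adjusted p = 0.0547). Cebpa, which encodes a C/EBP factor, was lower (-0.45, adjusted p = 0.0312), a call lost without any 1 of NZO replicates 2, 3 and 4 or 129P2 replicates 2, 3 and 5 (adjusted p between 0.0588 and 0.105). In NZO minus B6, 1 was higher and 0 lower (10.3% of all genes called). It was Stat3 (0.36, adjusted p = 0.0476), a call that held in 14 of 32 alternatives. limma called none of the 18 in NZO minus C3H (4 with an unadjusted p under 0.05), C3H minus 129P2 (3), C3H minus B6 (0) or 129P2 minus B6 (2).

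Of 22 acute phase genes, 13 were higher and 1 lower in NZO than in C3H (6.6% of all genes called). The counts were 12 and 1 in NZO minus 129P2 (8.9%) and 15 and 1 in NZO minus B6 (10.3%). C3H minus 129P2 had 0 higher and 1 lower (5.03%). C3H minus B6 had 2 and 0 (8.05%), and 129P2 minus B6 had 3 and 0 (6.19%). The part of these changes in the levels of the serpins was not tested. The liver itself was checked against marker genes: none of 8 tested hepatocyte markers was called by limma in any comparison (1 to 4 had an unadjusted p under 0.05), and their summed level lay between 16.6 and 16.8 in NZO, C3H, 129P2 and B6. These markers lie near the top of the array's range (Alb averaged 14.3), where a difference may be understated, so this shows that hepatocyte RNA was present and not that its share was equal. Markers of liver endothelial cells were lower in NZO, with 4, 5 and 6 of 8 called against C3H, 129P2 and B6. Stellate cell markers were lower too, with 2, 3 and 4 of 8. Of all genes tested, 6.6%, 8.9% and 10.3% were called in these comparisons, in that order. Summed endothelial levels ran from 11.4 to 11.9 in NZO, 11.8 to 12.2 in C3H, 11.9 to 12.3 in 129P2 and 11.9 to 12.4 in B6. Summed stellate levels ran from 11.5 to 12.02 in NZO, 12.1 to 12.3 in C3H, 12.1 to 12.4 in 129P2 and 11.9 to 12.8 in B6. All 8 markers of each list were above the 40th percentile on some arrays of every strain, and their part in the differences of Serpina6 and Serpina10 was not tested. Of 8 Kupffer cell markers, 2 were lower in C3H than in 129P2 (5.03% of all genes called). Against B6, 2 were lower in C3H (8.05%). In NZO minus 129P2, 0 were higher and 1 lower (8.9%). The counts were 1 and 1 in NZO minus B6 (10.3%) and 1 and 1 in 129P2 minus B6 (6.19%). Summed Kupffer cell levels ran from 11.6 to 12.4 in NZO, 11.5 to 11.8 in C3H, 11.7 to 12.8 in 129P2 and 11.9 to 12.3 in B6. In NZO minus B6, 2 of 5 tested neutrophil markers and 2 of 2 erythroid markers were higher (10.3% of all genes called). The 2 neutrophil markers were S100a9 (0.39, adjusted p = 0.0285) and Lcn2 (2.01, 0.0207). Lcn2 is also one of the acute phase genes counted above, so its call is not particular to neutrophils. In NZO minus 129P2, 1 of 2 erythroid markers was higher (8.9%). The neutrophil markers S100a8, Ngp and Ly6g were below the 40th percentile on every array. The part of these cell types in the serpin differences was not tested. In whole liver, fewer cells of a type and less RNA per cell cannot be told apart.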

How the data were processed

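Total RNA from liver of 20 mice (4 strains, 5 each) was amplified from 150 ng and hybridised to Affymetrix whole-transcript arrays, per the labels' protocols. The authors' deposited values are log2 expression from RMA in Affymetrix Expression Console, per the submitters' processing notes; versions are not given in the sources used here. RMA normalises arrays against each other and pulls small differences together, and precision is limited by how many arrays there are. The deposited values did not share 1 distribution. Array medians ran from 6.94 to 7.10 and interquartile ranges from 2.17 to 2.50. Gene symbols of the 35556 probe sets came from GEO's platform annotation: 21789 have 1 symbol, 1621 several and 12146 none. One probe set per gene, the one with the highest mean, was kept, and a gene was tested when at least 5 arrays exceeded their own 40th percentile (14190 of 19938 genes).

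All 4 strains entered 1 fit in limma 3.58.1 (R 4.3.3; lmFit, eBayes with an intensity trend, 16 residual and 6.37 prior degrees of freedom), and the 6 comparisons and the F-test were adjusted by Benjamini-Hochberg at 0.05 over all tested genes. Strains come from the labels, which name individual mice; replicate numbers follow the series' order. Summed levels of marker lists are log2 of summed linear values. Named genes are the 10 serpins, the measured clade A serpins and some called genes of the lists. The calls of those list genes did not all hold in nearly all alternatives. The 3 genes most alike by root-mean-square difference and the neighbours of the cluster are named too. The members and lists were chosen with earlier results of these data known, so no p-value here is independent evidence for them. Promoters were read from the RefSeq table for GRCm38.p6. Alternatives changed the filter, scaling, moderation, weights, spread covariate and arrays used.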

Additional observations from a re-analysis of the deposited data

How the results depend on the processing

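Each of the 36 differences of the 6 genes was recomputed under 32 alternatives (31 planned and 1, all probe sets in the fit, chosen after seeing the data). Of 384 recomputed values of called differences, 373 kept the call and 11 lost it, all of them Serpina10. Of 768 values of uncalled differences, 10 became called and 12 changed sign while uncalled. No called value reversed. For NZO minus C3H the count of called genes (1) was 0 with equal array medians, 2 with array spread as a covariate and 0 without the 3 arrays of narrowest spread (C3H 3, 129P2 2 and NZO 2), and between 0 and 1 when single animals were left out. For NZO minus B6 the count (0) was 1 after quantile normalization and between 0 and 1 when single animals were left out. Leaving out single animals gave 5 in NZO minus 129P2, 3 in C3H minus 129P2, 0 in C3H minus B6 and 3 to 4 in 129P2 minus B6, and 4 to 5 by the F-test. Without the 3 arrays of narrowest spread NZO minus 129P2 and the F-test gave 4 each. C3H minus 129P2 gave 4 with array weights, with the spread covariate and with only the 2 compared strains, and 129P2 minus B6 gave 4 with array weights and with the spread covariate; the gene gained was Serpina6. The cause of these changes was not tested. No paired analysis was possible because the labels carry no replicate numbers shared by the strains. No alternative scaling shifted the median of all genes by over 0.1. By Dixon's criterion at the 95% level no animal was an outlier in any of the 24 groups of 5 (6 genes in 4 strains). B6 replicate 3 in Serpina12 and Serpina7 was included. The criterion weighs only the gap from an extreme value to the next. A second high animal, as for Serpina7 in B6, can therefore hide the first, and the result does not clear B6 replicate 3.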

Other observations

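B6 replicate 3 was looked at more closely after its values had been seen, since it held the lowest Serpina12 and the highest Serpina7 and Serpina6 of its strain. Set against the mean of the other 4 B6 animals, Serpina12 was lower by 2.32 log2 units, which is number 2 of 14190 genes from the bottom, and Serpina7 was higher by 2.05, number 11 from the top. Serpina6 was higher by 0.56 (number 305 from the top), and Serpina1d, Serpina10 and Serpina11 deviated by -0.21, -0.18 and -0.07. The genes farthest from the other B6 animals were Cyp7b1, an oxysterol hydroxylase gene (-2.97), Serpina12 itself, Onecut1, a hepatocyte transcription factor gene (-2.05), and Slc22a7 (-1.90) on the low side, and Cyp4a14, a fatty acid hydroxylase gene (4.01), Mmp12 (3.11), D17H6S56E-5 (2.87) and the hepatokine gene Fgf21 (2.86) on the high side. In this animal 94 genes deviated by more than 1 unit, against 17, 28, 20 and 52 in the other B6 animals. This is 1 animal, with no test.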
